A study of Homo sapiens with 21 samples.

Results

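The genes described here encode the granins, the neuropeptide NPY and the enzymes that process peptide precursors: CHGA, CHGB, SCG2, SCG3, SCG5, VGF, NPY, PCSK1, PCSK2 and CPE. They are the 10 rows with these symbols among the 57820 genes of the authors' calibrated expression table. The cells were NLF, a line derived from a human neuroblastoma, and derivatives of it transduced with CRISPR-Cas9 lentivirus, and their total RNA was sequenced. The 21 libraries form 7 groups of 3. They are YAPKO2 with trametinib and with DMSO, YAPKO1 with trametinib and with DMSO, sgCON with trametinib and with DMSO, and the parental line. YAPKO1 and YAPKO2 carry Cas9 with 1 of 2 guides against YAP1, a transcriptional coactivator restrained by the Hippo pathway, and sgCON carries Cas9 with a scrambled guide. Trametinib, an inhibitor of the MEK kinases, was given at 20 nM for 72 h. Its solvent DMSO is given at 0.01% by the sample labels, while the series design gives 0.1%. The parental libraries carry no modification and are labelled with DMSO as well, and whether they were cultured on the same schedule is uncertain. Each guide is represented by 1 line, and the labels do not say whether a line is 1 clone, so loss of YAP1 and other differences between the lines cannot be told apart. The labels do not say that replicates are separate cultures, so p-values measure the spread between these libraries, which may be technical.

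Neuroendocrine cells store peptides in dense-core granules. Granins are acidic proteins that help to form these granules and are themselves cut into peptides, while NPY is a peptide of sympathetic neurons. In the granule the convertases PCSK1 and PCSK2 cleave precursors at pairs of basic residues, and carboxypeptidase E (CPE) then removes those residues. Chromogranin A and NPY are known markers of neuroblastoma, a tumour of the sympathetic lineage.

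Values are FPKM (fragments per kilobase of transcript, relative to all mapped fragments), divided by a scale factor per library, given per library or as mean ± SD (n = 3). Changes are log2 differences of FPKM + 0.5 with the standard error (SE), tested with limma across 16092 genes and called at an adjusted p under 0.05. The added 0.5 understates changes of low genes. Counting intervals are not available, since FPKM hold no counts. Relative depth, estimated as the inverse of the most frequent ratio of low FPKM to those of parental replicate 1, ran between 0.774 and 1.68. This estimate is rough, since FPKM are already relative to all mapped fragments. Of the 10 genes 7 passed the filter of at least 1 FPKM in 3 libraries. CHGB and SCG3 passed only through YAPKO2 with trametinib, the group in which they were high, so that they had to differ there. Their changes in comparisons with that group are given as a description, with no test. SCG5, PCSK1 and PCSK2 were not tested.

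YAP1 RNA was 2.89 ± 0.250 in YAPKO2 and 11.7 ± 2.31 in YAPKO1, against 25.6 ± 1.85 in sgCON, all in DMSO. ETV4, a transcription factor gene that ERK signalling induces, stood at 0.372 ± 0.172 with trametinib, against 34.7 ± 5.29 with DMSO in YAPKO2, and fell in the other lines as well. DUSP6, a second check of the drug, also fell in every line. With DMSO DUSP6 was already lower than in sgCON, by a log2 change of -1.87 in YAPKO2 and -1.43 in YAPKO1 (SE 0.19 each). ETV4 did not differ by a called change there. The sympathetic factors PHOX2A, HAND2, GATA3 and ISL1 were above 10 FPKM in every group mean, whereas TH, which makes the precursor of noradrenaline, did not exceed 0.511 FPKM in any library. DBH, the enzyme that completes noradrenaline, was low except in the knockout lines with trametinib (means of 4.71 in YAPKO2 and 6.09 in YAPKO1). The summed FPKM of these 6 markers ran between 254 and 362 in YAPKO2 with trametinib, 201 and 219 in YAPKO2 with DMSO, 233 and 272 in YAPKO1 with trametinib, 182 and 239.8 in YAPKO1 with DMSO, 192 and 221 in sgCON with trametinib, 180.5 and 188 in sgCON with DMSO, and 187 and 195 in parental cells. The sum reached its highest values in YAPKO2 with trametinib, as CHGA did below, but there overlapped YAPKO1 with trametinib, and its part in the results was not tested. Single markers differed. PHOX2A, HAND2 and GATA3 had their highest means in YAPKO2 with trametinib, while ISL1, TH and DBH had theirs in YAPKO1 with trametinib. Of 6 fibroblast genes, all were detected at 1 FPKM or more in some group. Their sum lay between 183 and 334 in YAPKO2 with trametinib, 356 and 591 in YAPKO2 with DMSO, 174.5 and 259.7 in YAPKO1 with trametinib, 198 and 479 in YAPKO1 with DMSO, 448 and 576 in sgCON with trametinib, 426 and 513 in sgCON with DMSO, and 824 and 892 in parental cells. In YAPKO2 it was thus lower with trametinib, without overlap, where CHGA was higher. The genes of the list went both ways there. In YAPKO2 COL3A1 averaged 37.6 with trametinib and 24.8 with DMSO, and PDGFRA 2.78 and 0.580, both without overlap. LUM averaged 80.2 and 214, DCN 123 and 209, and COL1A1 and COL1A2 also had lower means with the drug. Single genes differed from the sum, with DCN at a mean of 123 in YAPKO2 with trametinib, against 13.9 in sgCON with DMSO, while LUM had 80.2 and 351 in those groups. Of 5 epithelial genes, CDH1 was at 0 everywhere and EPCAM did not exceed 0.218, while the summed list was 0.594 to 1.65 in YAPKO2 with trametinib and 16.9 to 18.1 in sgCON with DMSO. Of 6 Schwann cell genes CDH19 was at 0 everywhere, and the sum stayed between 1.56 and 5.83 over all libraries. Of 6 blood and endothelial genes CD3E was at 0 everywhere, and CD68 led the parental sum of 10.1 to 13.3. PECAM1 was not analysed here. What these markers contribute to the results was not tested. In bulk RNA, fewer cells of a type and less RNA per cell cannot be told apart.

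The libraries were not alike in their level of GC-rich genes. A measure of this, the GC trend, is the median deviation of genes in the upper quartile of transcript GC content (55.9% or more) minus that of the lower quartile (42.0% or less). It was 0.67, 1.22 and -0.24 in the 3 YAPKO2 trametinib libraries, 0.09, 0.57 and 0.16 in YAPKO2 with DMSO, 0.36, -0.08 and 0.49 in YAPKO1 with trametinib, and -0.39, -0.22 and 0.63 in YAPKO1 with DMSO. It was -0.13, -0.26 and -0.14 in sgCON with trametinib, -0.36, -0.45 and -0.34 in sgCON with DMSO, and between -0.55 and -0.50 in parental cells. Transcript GC content was 70.6% for VGF, 62.4% for CHGA, 57.9% for NPY, 52.3% for CHGB, 47.5% for CPE, 43.0% for SCG2 and 41.9% for SCG3. Each call below was repeated with a spline correction for GC content, and the values are given where the call changed, other than for CHGB and SCG3 in comparisons with YAPKO2 with trametinib.

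The stretches of 150 bases before the start of 4 of these genes are shown because 3 of them (CHGA, VGF and PCSK1) share a motif while their RNA levels took different courses, and NPY, which lacks it, is set beside them. They come from RefSeq (GRCh38.p14, strand of the gene), which matched 8 of the 10 genes, with CHGB and SCG2 unmatched. Capitals mark the cAMP response element TGACGTCA and its core TGACG, searched on both strands. Each full element contains the core on both strands, so the 2 motifs overlap.

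CHGA, chr14:92923000-92923149, plus strand: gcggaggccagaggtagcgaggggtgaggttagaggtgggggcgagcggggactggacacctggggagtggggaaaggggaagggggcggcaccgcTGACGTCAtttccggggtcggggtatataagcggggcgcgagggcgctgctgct

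VGF, chr7:101165570-101165719, minus strand: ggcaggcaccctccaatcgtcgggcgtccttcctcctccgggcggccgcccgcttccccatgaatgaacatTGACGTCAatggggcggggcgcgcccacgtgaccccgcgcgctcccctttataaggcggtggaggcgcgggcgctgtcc

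PCSK1, chr5:96433249-96433398, minus strand: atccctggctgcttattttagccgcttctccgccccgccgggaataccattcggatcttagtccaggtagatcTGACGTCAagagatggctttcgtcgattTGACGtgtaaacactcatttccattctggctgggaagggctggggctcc

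NPY, chr7:24284040-24284189, plus strand: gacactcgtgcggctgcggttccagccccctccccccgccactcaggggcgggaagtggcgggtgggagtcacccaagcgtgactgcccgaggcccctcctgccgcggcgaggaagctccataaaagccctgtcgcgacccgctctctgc

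The full element began 54 bases before the CHGA start, 79 before the VGF start and 77 before the first of 2 PCSK1 starts, all counted from the RefSeq start. The GENCODE gene spans given below begin further upstream for these genes, so the CHGA and PCSK1 elements lie inside those spans. It was present in 1.65% of 35116 promoter windows of 250 bases in the same table, and the core in 21.2%. No full element or core lay in the NPY window. SCG5, PCSK2 and CPE had the core only, and SCG3 had none in its window. The letters GGAATG, bound by the TEAD partners of YAP, were found only in the SCG3 window among the 8 genes, against 11.9% of all windows, and the AP-1 letters TGANTCA in none of them, against 6.57%. These matches describe the letters in the windows and say nothing on binding.

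CHGA encodes chromogranin A, the granin measured clinically in neuroendocrine tumours (chromosome 14, 92923080 to 92935293, plus strand, GRCh38 by GENCODE release 29). Its RNA was highest in YAPKO2 with trametinib, at 19.5, 25.3 and 19.2 FPKM in the 3 libraries, against 0.770, 1.34 and 1.16 in YAPKO2 with DMSO. YAPKO1 held 2.00, 2.00 and 2.67 with trametinib, against 0.575, 0.141 and 0.567 with DMSO. The sgCON line held 0.772, 0.666 and 0.221 with trametinib, against 0.0982, 0 and 0.0498 with DMSO. Every trametinib library thus lay above every DMSO library of its own line, and the YAPKO2 trametinib libraries lay far above all others. Parental cells were listed at 0, 0 and 0.149. In the order of group means YAPKO2 with trametinib, YAPKO1 with trametinib and YAPKO2 with DMSO came first and did not overlap each other, while each further group overlapped the one above it.

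With trametinib CHGA rose by 3.79 (SE 0.25, limma adjusted p = 1.87e-08) in YAPKO2 and by 1.58 (SE 0.25, limma adjusted p = 0.000582) in YAPKO1. In sgCON the change was 0.90 (SE 0.25, limma adjusted p = 0.0444). That last call was lost without any 1 of 5 of the 6 sgCON libraries, all but trametinib replicate 3, with adjusted p up to 0.201, and with a pseudocount of 1. It was also lost without a filter, with a filter on mean FPKM, and with a replicate block with or without the GC correction. Fitting only the groups compared lost it as well, and it was kept in 8 of 19 alternatives. The response of YAPKO2 exceeded that of sgCON by 2.89 (SE 0.35, limma adjusted p = 0.000111) and that of YAPKO1 by 2.20 (SE 0.35, limma adjusted p = 0.00728), and neither difference was called with a pseudocount of 0.1 (adjusted p of 0.0923 and 0.334). For YAPKO1 against sgCON the response difference was 0.68 (SE 0.35, limma adjusted p = 0.748). Against sgCON in DMSO, CHGA rose by 1.52 (SE 0.25, limma adjusted p = 0.000262) in YAPKO2, and in YAPKO1 it differed by 0.72 (SE 0.25, limma adjusted p = 0.0707). In trametinib the rise over sgCON was 4.41 (SE 0.25, limma adjusted p = 7.22e-10) in YAPKO2 and 1.40 (SE 0.25, limma adjusted p = 0.000959) in YAPKO1. The GC trend was higher in the YAPKO2 groups and in YAPKO1 with trametinib than in sgCON in most libraries, and its part in the CHGA values was not tested. With the GC correction the trametinib change in YAPKO2 was 3.63 (SE 0.24).

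CHGB encodes chromogranin B, a second granule matrix protein (chromosome 20, 5911430 to 5925361, plus strand). It was 3.86, 4.17 and 6.87 in YAPKO2 with trametinib, against 0.540, 0.688 and 0.760 in YAPKO2 with DMSO. In YAPKO1 it was 0.648, 0.0960 and 0.379 with trametinib, against 0, 0.101 and 0.0304 with DMSO, and these ranges overlapped. In sgCON it was 0.191, 0.215 and 0.422 with trametinib and listed at 0 in all 3 DMSO libraries, so no fold against that group is given. Parental cells, in contrast, had 0.0810, 0.413 and 0.228. The log2 change of CHGB with trametinib in YAPKO2 was 2.20 (SE 0.27), and with trametinib the difference of YAPKO2 from sgCON was 2.79 (SE 0.27), both without a test. YAPKO1 with trametinib differed from sgCON by 0.13 (95% confidence interval -0.43 to 0.69).

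SCG3 encodes secretogranin III, which tethers granins to the granule membrane (chromosome 15, 51681353 to 51721031, plus strand). It had the same high group as CHGB, with 3.01, 1.81 and 4.97 in YAPKO2 with trametinib, against 0.290, 0.277 and 0.323 in YAPKO2 with DMSO. YAPKO1 had 0.570, 0.432 and 0.435 with trametinib, against 0.105, 0.141 and 0.0507 with DMSO. The sgCON line had 0.258, 0.294 and 0.0768 with trametinib, against 0.0393, 0 and 0 with DMSO. In all 3 lines each trametinib library was above each DMSO library, but only in YAPKO2 did SCG3 pass 1 FPKM. The change with trametinib was 2.15 (SE 0.26, no test) in YAPKO2, 0.71 (SE 0.26, limma adjusted p = 0.108) in YAPKO1 and 0.45 (SE 0.26, limma adjusted p = 0.389) in sgCON. With the GC correction the YAPKO1 change was 0.80 (SE 0.22, limma adjusted p = 0.0192). That correction also gave calls over sgCON for YAPKO2 with DMSO (0.89, SE 0.22, limma adjusted p = 0.00508) and for YAPKO1 with trametinib (0.65, SE 0.22, limma adjusted p = 0.0401), which were 0.64 and 0.48 without it and not called. SCG3 overlaps 2 antisense non-coding genes, and whether the quantification used strand is not given in the sources used here. Those genes did not exceed 0.147 FPKM in any library.

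**Figure D1:**
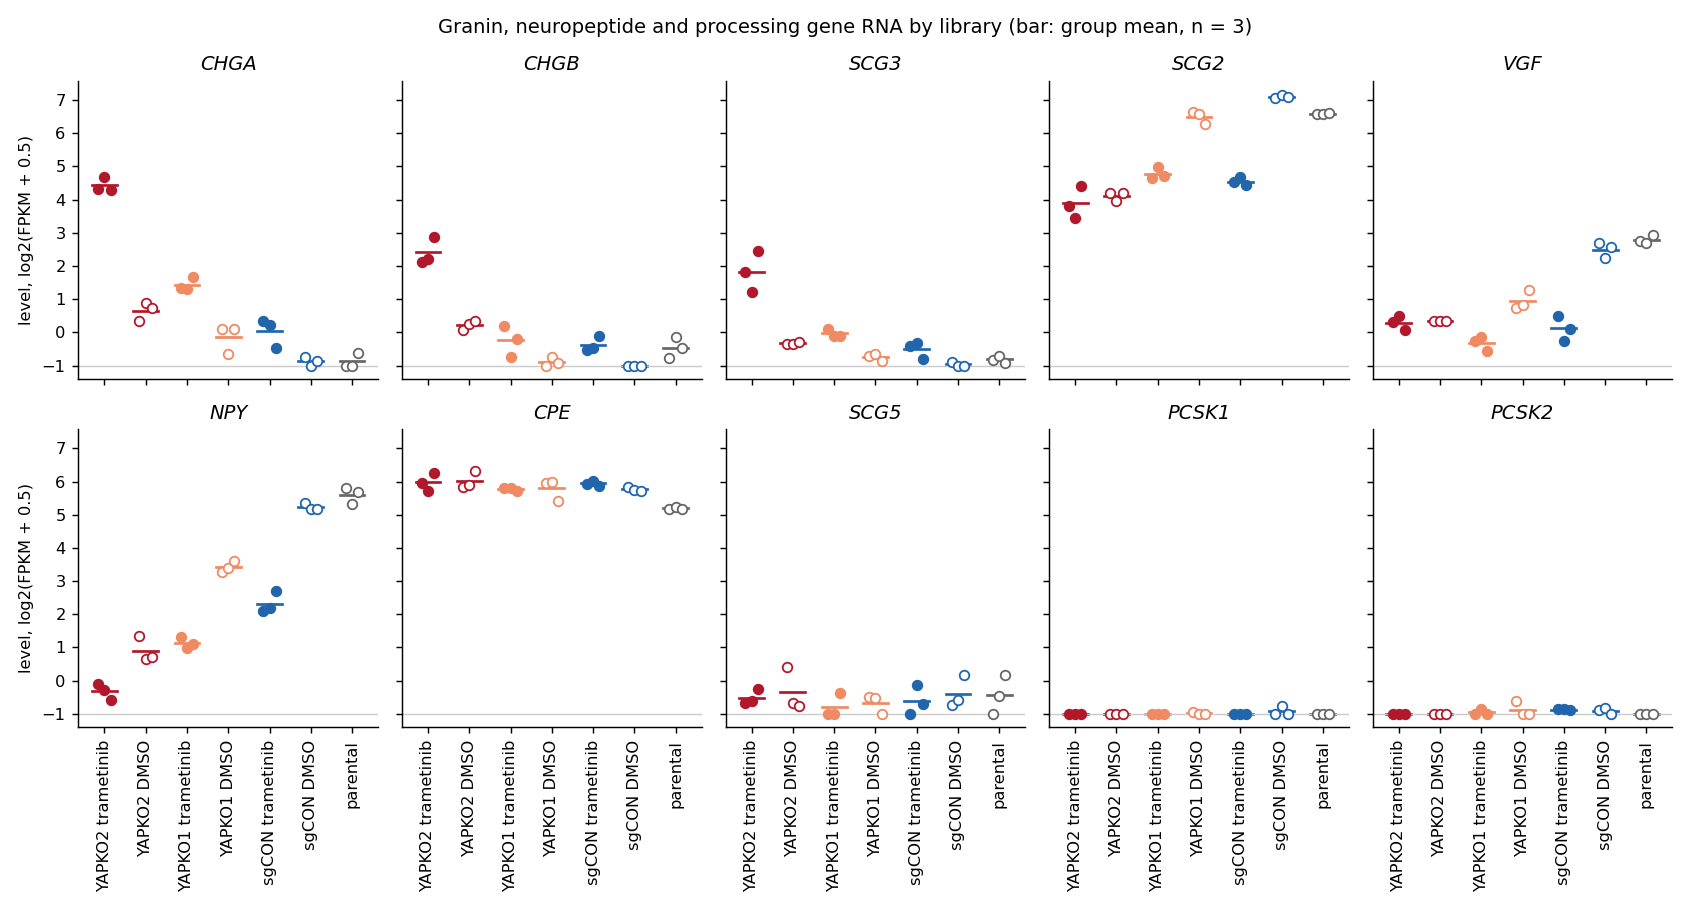
Expression of the 10 genes in each library, as log2(FPKM + 0.5) on the vertical axis, by group on the horizontal axis. Points are libraries (filled with trametinib, open with DMSO, parental cells included), short bars are group means and the grey line marks an FPKM of 0. CHGA, CHGB and SCG3 are highest in YAPKO2 with trametinib, SCG2, VGF and NPY are highest in sgCON with DMSO and in parental cells, CPE is high in every group and lowest in parental cells, and PCSK1 and PCSK2 lie on the grey line or close to it.

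SCG2 encodes secretogranin II, the precursor of secretoneurin (chromosome 2, 223596940 to 223602503, minus strand). It had the highest mean FPKM of the granins in 6 of the 7 groups, the exception being YAPKO2 with trametinib. In sgCON it was 22.6, 25.1 and 21.1 with trametinib, against 134, 143 and 135 with DMSO. YAPKO1 had 24.8, 30.9 and 25.4 with trametinib, against 98.3, 95.7 and 76.4 with DMSO. YAPKO2 had 13.4, 10.4 and 20.8 with trametinib, against 17.8, 15.1 and 18.0 with DMSO. The groups were apart in sgCON and YAPKO1 and overlapped in YAPKO2, where SCG2 was already low without the drug. Parental cells had 94.9 to 96.5. In the order of group means parental cells overlapped YAPKO1 with DMSO, YAPKO1 with trametinib overlapped sgCON with trametinib, and the other neighbours outside YAPKO2 did not overlap.

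The change of SCG2 with trametinib was -1.72 (SE 0.17, limma adjusted p = 5.76e-06) in YAPKO1 and -2.56 (SE 0.17, limma adjusted p = 6.48e-08) in sgCON. In YAPKO2 it was -0.23 (95% confidence interval -0.60 to 0.13). The response of YAPKO2 differed from that of sgCON by 2.33 (SE 0.25, limma adjusted p = 4.71e-05) and from that of YAPKO1 by 1.48 (SE 0.25, limma adjusted p = 0.00802). The difference from YAPKO1 had an adjusted p of 0.209 when only the groups compared were fitted. For YAPKO1 against sgCON the response difference was 0.85 (SE 0.25, limma adjusted p = 0.253), and 0.86 with the GC correction (SE 0.15, limma adjusted p = 0.0111). In DMSO SCG2 was lower than in sgCON, with a log2 change of -2.99 (SE 0.17, limma adjusted p = 1.21e-09) in YAPKO2 and of -0.61 (SE 0.17, limma adjusted p = 0.0273) in YAPKO1. The YAPKO1 call was lost without YAPKO1 DMSO replicate 3, the library of high GC trend (-0.50, adjusted p = 0.126), and without any 1 of the sgCON DMSO libraries (adjusted p of 0.0656 to 0.0896). With trametinib SCG2 was lower in YAPKO2 than in sgCON, with a change of -0.66 (SE 0.17, limma adjusted p = 0.00702), a call lost when only the groups compared were fitted (adjusted p = 0.129), and in YAPKO1 it differed by 0.23 (95% confidence interval -0.13 to 0.60). With the GC correction this YAPKO1 difference was 0.36 (SE 0.11, limma adjusted p = 0.0225). The sgCON line with DMSO differed from parental cells by 0.52 (SE 0.17, limma adjusted p = 0.0513), and by 0.57 with the GC correction (SE 0.11, limma adjusted p = 0.000819).

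VGF encodes a nerve growth factor inducible precursor of granule peptides (chromosome 7, 101162509 to 101165593, minus strand). In sgCON it was 0.915, 0.343 and 0.576 with trametinib, against 5.91, 4.21 and 5.39 with DMSO. In YAPKO1 it was 0.334, 0.413 and 0.170 with trametinib, against 1.18, 1.25 and 1.93 with DMSO. In YAPKO2 it was 0.736, 0.902 and 0.556 with trametinib, against 0.760, 0.760 and 0.770 with DMSO. As for SCG2, the drug groups were apart in sgCON and YAPKO1 and overlapped in YAPKO2. The change with trametinib was -2.37 (SE 0.21, limma adjusted p = 1.30e-06) in sgCON, -1.27 (SE 0.21, limma adjusted p = 0.000820) in YAPKO1, and -0.05 (95% confidence interval -0.49 to 0.39) in YAPKO2. The response of YAPKO2 differed from that of sgCON by 2.33 (SE 0.30, limma adjusted p = 0.000166). In YAPKO2 with DMSO VGF was already under 1 FPKM, so with the added 0.5 it could not fall as far as in sgCON. Relative to sgCON, both with DMSO, VGF fell, with a log2 change of -2.16 (SE 0.21, limma adjusted p = 7.68e-07) in YAPKO2 and of -1.55 (SE 0.21, limma adjusted p = 7.03e-05) in YAPKO1. Parental cells had 5.93 to 7.19, just above the sgCON DMSO libraries and without overlap. With the GC correction 3 further VGF differences were called. They were -0.57 (SE 0.19, limma adjusted p = 0.0392) for YAPKO1 against sgCON with trametinib, -0.70 (SE 0.19, limma adjusted p = 0.0214) for YAPKO2 against YAPKO1 in DMSO, and 1.17 (SE 0.27, limma adjusted p = 0.0267) for the response of YAPKO2 minus that of YAPKO1, against -0.44, -0.61 and 1.22 without it. Of the 3 genes with the full response element, VGF fell and CHGA rose with trametinib in sgCON and YAPKO1, and PCSK1 was close to 0 throughout.

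SCG5 encodes the chaperone 7B2 of PCSK2 (chromosome 15, 32641676 to 32697098, plus strand). It stayed below 1 FPKM in every library, with group means of 0.0915 in YAPKO1 with trametinib to 0.349 in YAPKO2 with DMSO, and neighbouring groups overlapped throughout. It overlaps an antisense gene that reached 0.744 FPKM, so its low values are uncertain.

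NPY encodes neuropeptide Y, the co-transmitter of noradrenaline in sympathetic neurons (chromosome 7, 24284163 to 24291865, plus strand). It was lower with trametinib and lower again in the knockout lines. YAPKO2 had 0.432, 0.327 and 0.170 with trametinib, against 2.02, 1.08 and 1.12 with DMSO. YAPKO1 had 1.96, 1.46 and 1.64 with trametinib, against 9.14, 9.96 and 11.6 with DMSO. The sgCON line had 3.77, 4.02 and 6.02 with trametinib, against 40.7, 35.6 and 35.6 with DMSO. In each line all 3 trametinib libraries lay below all 3 DMSO libraries. Parental cells had 55.9, 39.2 and 51.4, and their range overlapped that of sgCON with DMSO. The other neighbours in the order of group means did not overlap, apart from YAPKO1 with trametinib and YAPKO2 with DMSO.

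The change of NPY with trametinib was -1.22 (SE 0.20, limma adjusted p = 0.000354) in YAPKO2, -2.29 (SE 0.20, limma adjusted p = 1.52e-06) in YAPKO1 and -2.91 (SE 0.20, limma adjusted p = 7.76e-08) in sgCON. The YAPKO2 call was lost when only the groups compared were fitted (adjusted p = 0.0561). In YAPKO2 the response was smaller than in sgCON by 1.70 (SE 0.29, limma adjusted p = 0.00169), a call lost with a pseudocount of 0.1 (1.14, adjusted p = 0.0944), and all 3 values with the drug were under the added 0.5. NPY averaged 1.41 FPKM in YAPKO2 with DMSO, so with the added 0.5 it could not fall as far as in sgCON. In DMSO NPY was lower than in sgCON, with a log2 change of -4.34 (SE 0.20, limma adjusted p = 6.18e-11) in YAPKO2 and of -1.82 (SE 0.20, limma adjusted p = 9.00e-06) in YAPKO1. With trametinib the differences from sgCON were -2.64 (SE 0.20, limma adjusted p = 2.91e-08) in YAPKO2 and -1.20 (SE 0.20, limma adjusted p = 0.000555) in YAPKO1.

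PCSK1 and PCSK2 encode the main prohormone convertases (chromosome 5, 96390415 to 96434143, minus strand; chromosome 20, 17226107 to 17484578, plus strand). PCSK1 was listed at 0 in all but 2 libraries, sgCON DMSO replicate 2 (0.0907) and YAPKO1 DMSO replicate 1 (0.0192). PCSK2 did not exceed 0.153 FPKM and was listed at 0 in all libraries of YAPKO2 and of the parental line. No group could be told from another for either gene.

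CPE encodes carboxypeptidase E (chromosome 4, 165361194 to 165498320, plus strand). Its RNA was abundant in every library. YAPKO2 had 61.4, 52.0 and 76.6 with trametinib, against 56.2, 59.3 and 79.0 with DMSO. YAPKO1 had 55.5, 55.7 and 52.5 with trametinib, against 62.2, 62.8 and 42.5 with DMSO. The sgCON line had 60.6, 64.8 and 58.0 with trametinib, against 56.5, 53.4 and 51.9 with DMSO. Ranges overlapped within YAPKO2 and YAPKO1, and in sgCON they lay side by side. The log2 change with trametinib was -0.03 (95% confidence interval -0.36 to 0.29) in YAPKO2, -0.01 (-0.33 to 0.31) in YAPKO1 and 0.18 (-0.15 to 0.50) in sgCON. For the knockout lines relative to sgCON, with DMSO, it was 0.25 (-0.08 to 0.57) in YAPKO2 and 0.03 (-0.30 to 0.35) in YAPKO1. Parental cells had 35.4, 37.2 and 35.9, and CPE was higher in sgCON with DMSO by 0.57 (SE 0.15, limma adjusted p = 0.0167). This call was lost without parental replicate 1 (adjusted p = 0.0533), without parental replicate 3 (0.0518) or without sgCON DMSO replicate 1 (0.0617).

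CHGB and SCG3 entered the test only through YAPKO2 with trametinib and are left out of the counts for comparisons with that group. Of the other 5 tested genes trametinib raised 1 and lowered 1 in YAPKO2, where 8.59% of all tested genes were higher and 11.5% lower. In YAPKO1, over all 7 tested genes, it raised 1 and lowered 3, where 3.97% of all tested genes were higher and 3.88% lower. In sgCON it also raised 1 and lowered 3, where 2.28% were higher and 2.94% lower. Of all called genes 42.8% were higher in YAPKO2, 50.6% in YAPKO1 and 43.7% in sgCON, against 56.4% and 62.3% in YAPKO2 and YAPKO1 without any scaling and 54.8% in sgCON with the calibrated table unscaled. CHGA was called higher in all 3 lines and NPY lower in all 3, while SCG2 and VGF were called lower in sgCON and YAPKO1. The CHGA call in sgCON, where every library was under 1 FPKM, was kept in 8 of 19 alternatives. When only the groups compared were fitted, the calls of CHGA (adjusted p = 0.0587) and VGF (0.0707) in YAPKO1 and of CHGA (0.0688) in sgCON were lost.

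**Figure D2:**
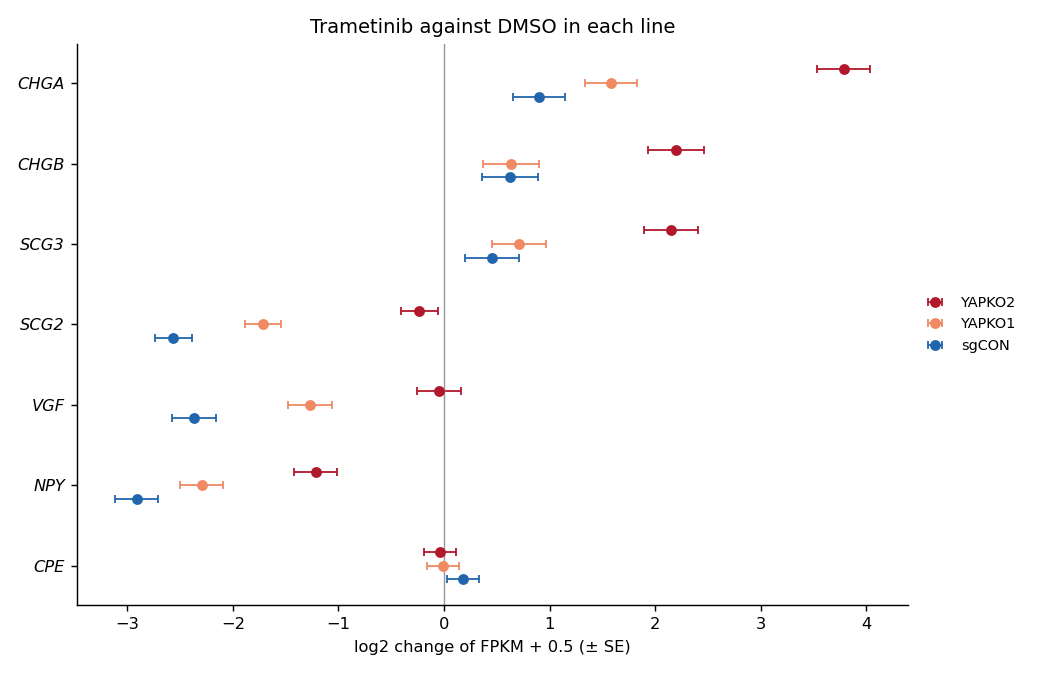
Log2 change of FPKM + 0.5 with trametinib against DMSO (horizontal axis) for the 7 tested genes in YAPKO2, YAPKO1 and sgCON. Points are fitted changes and bars are ± 1 SE from limma, with 3 libraries per group. CHGA lies to the right of 0 in all lines, NPY to the left in all lines, and SCG2 and VGF lie near 0 in YAPKO2 only; CHGB was listed at 0 in every sgCON DMSO library, so its sgCON point depends on the added 0.5.

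Between YAPKO2 and sgCON the response difference was called for 4 of these 5 genes, all positive. Of all tested genes 1.80% had a called positive difference and 3.03% a negative one. They were CHGA, whose change was more positive in YAPKO2, and SCG2, VGF and NPY, whose changes were less negative. With the added 0.5, VGF and NPY were too low in YAPKO2 with DMSO to fall as far as in sgCON. The sign of their differences was thus fixed, and their calls at that setting are no evidence of a differing response. With a pseudocount of 0.1 the 2 calls that stayed were SCG2 and VGF. Between YAPKO2 and YAPKO1 the difference was called for 2 genes, CHGA and SCG2, where 0.217% of all tested genes were positive and 0.590% negative. Between YAPKO1 and sgCON it was called by limma for 0 of the 7 genes (3 positive at an unadjusted p under 0.05), where 0.199% of all tested genes were positive and 0.0497% negative. With the GC correction 2 were called in that last comparison, SCG2 and VGF, with VGF at 1.20 (SE 0.27, limma adjusted p = 0.0409).

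Compared with sgCON, YAPKO2 with DMSO had 2 genes higher, 1 of them CHGB with its sgCON libraries at 0, and 3 lower, where 14.1% of all tested genes were higher and 13.1% lower. For YAPKO1 with DMSO 0 genes were higher by limma (1 at an unadjusted p under 0.05) and 3 lower, where 6.18% were higher and 5.81% lower. With trametinib YAPKO2 had 1 of the 5 genes higher and 2 lower, where 17.7% were higher and 18.6% lower, and YAPKO1 had 1 higher and 1 lower, where 7.81% were higher and 7.18% lower. The comparisons in DMSO and the trametinib comparisons within sgCON use the same sgCON libraries, so their values are only set side by side.

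**Figure D3:**
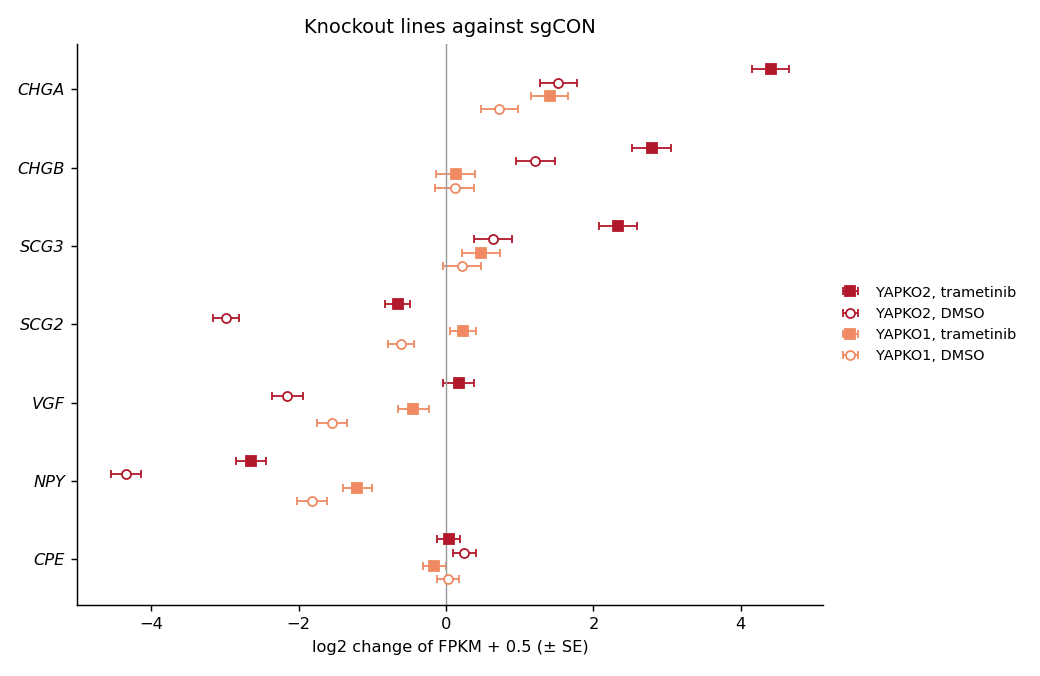
Log2 change of FPKM + 0.5 in YAPKO2 and YAPKO1 against sgCON (horizontal axis) for the 7 tested genes, with trametinib (filled squares) and with DMSO (open circles). Points are fitted changes and bars are ± 1 SE from limma, with 3 libraries per group. SCG2 and VGF lie far to the left in YAPKO2 with DMSO, while with trametinib SCG2 lies at -0.66 and VGF at 0.17, CHGA lies furthest to the right in YAPKO2 with trametinib, and CHGB values with DMSO rest on an sgCON group listed at 0.

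Set directly against YAPKO1, YAPKO2 with DMSO had 1 gene higher, CHGB, and 2 lower, SCG2 and NPY, where 3.73% of all tested genes were higher and 3.23% lower. SCG2 differed by -2.37 (SE 0.17, limma adjusted p = 6.82e-08) and NPY by -2.52 (SE 0.20, limma adjusted p = 2.45e-07). The CHGB call (1.10, SE 0.27, limma adjusted p = 0.0159) was lost without YAPKO1 DMSO replicate 1, YAPKO2 DMSO replicate 2 or YAPKO2 DMSO replicate 3 (adjusted p of 0.0584 to 0.0665). With trametinib YAPKO2 had 1 of the 5 genes higher than YAPKO1 and 2 lower, where 6.48% were higher and 7.69% lower. CHGA was higher by 3.00 (SE 0.25, limma adjusted p = 2.94e-07), and NPY was lower, with a change of -1.44 (SE 0.20, limma adjusted p = 0.000101). The call of SCG2 (-0.89) there was lost when only the groups compared were fitted (adjusted p = 0.162). The sgCON line with DMSO had 1 gene higher than parental cells, CPE, and 0 lower by limma (0 also at an unadjusted p under 0.05), where 7.99% of all tested genes were higher and 7.87% lower.

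The make-up of granin RNA differed between the groups. The FPKM of CHGA, CHGB, SCG2, SCG3, SCG5 and VGF, a unit set per transcript length, summed to 40.7, 42.7 and 52.7 in YAPKO2 with trametinib, against 20.95, 18.3 and 21.1 in YAPKO2 with DMSO. In sgCON the sum was 24.7, 27.0 and 22.5 with trametinib, against 140.3, 147 and 141 with DMSO. SCG2 made up 33.0%, 24.4% and 39.4% of this sum in YAPKO2 with trametinib, against 84.7%, 82.6% and 85.4% in YAPKO2 with DMSO. CHGA made up 48.0%, 59.2% and 36.4% in YAPKO2 with trametinib, against 3.68%, 7.35% and 5.48% in YAPKO2 with DMSO. CHGA was therefore the larger of these 2 in replicates 1 and 2 of YAPKO2 with trametinib, while in replicate 3 SCG2 was slightly larger. In all libraries of the other groups SCG2 made up at least 82.6%.

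Over all 10 genes, CPE held 59.9%, 54.7% and 59.1% of the summed FPKM in YAPKO2 with trametinib, against 71.0%, 75.4% and 78.1% in YAPKO2 with DMSO. In sgCON its share was 68.0%, 67.6% and 67.1% with trametinib, against 23.8%, 22.6% and 22.7% with DMSO. The level of CPE itself did not differ by a called change between these groups. In sgCON its share was higher with trametinib, where SCG2 and NPY were lower. In YAPKO2 its share was lower with trametinib, where CHGA averaged 21.3, against 1.09 with DMSO. SCG2 and NPY had lower means there with trametinib as well.

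**Figure D4:**
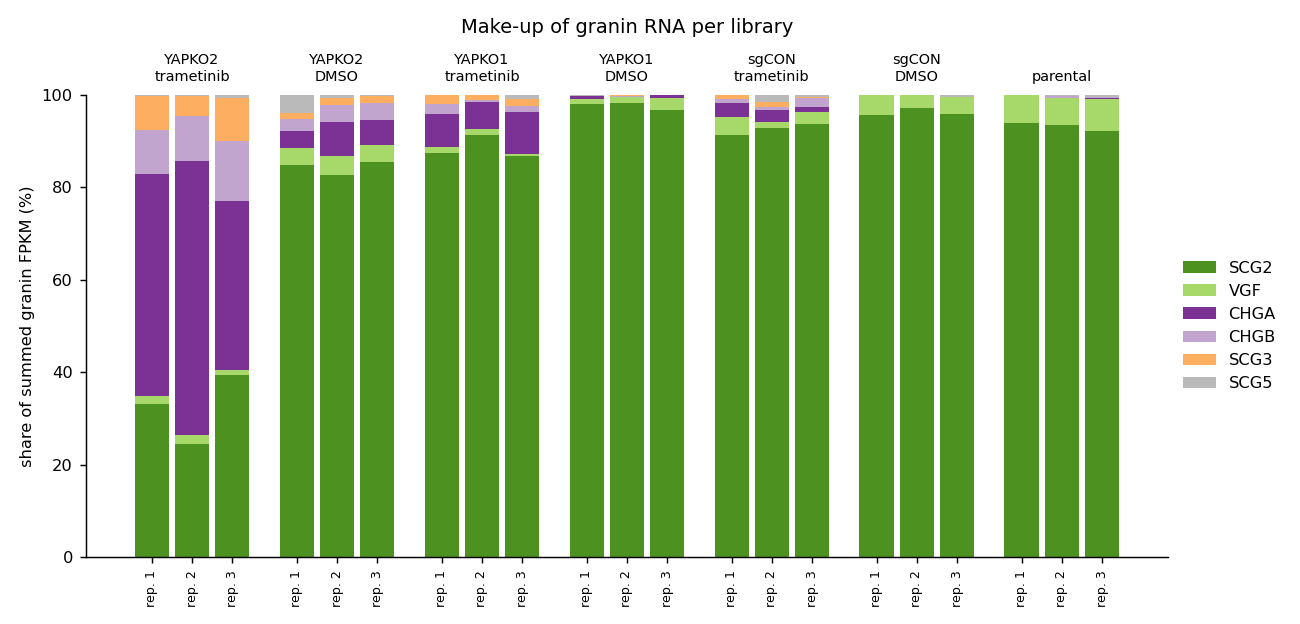
Share of the summed FPKM of 6 granin genes (vertical axis, percent) in each library, grouped along the horizontal axis. Colours are genes and each bar is 1 library. SCG2 fills at least 82.6% of every bar except in YAPKO2 with trametinib, where CHGA fills 36.4% to 59.2%.

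Other genes of the same pathway were read from lists, and their counts stand beside the shares of all tested genes. With trametinib 8.59% of all tested genes were higher and 11.5% lower in YAPKO2. In YAPKO1 these shares were 3.97% and 3.88%, and in sgCON 2.28% and 2.94%. Against sgCON in DMSO they were 14.1% and 13.1% for YAPKO2, and 6.18% and 5.81% for YAPKO1. Of 33 other peptide precursors, 8 were tested. In YAPKO2 trametinib raised 3 of them and lowered 0 by limma (2 at an unadjusted p under 0.05), with a list median of 0.38, against -0.01 over all tested genes. In YAPKO1 it raised 2 and lowered 0 (1 at an unadjusted p under 0.05), with a median of 0.18. In sgCON it raised 2 and lowered 1, with a median of -0.09. ADM, which encodes the vasodilator peptide adrenomedullin, averaged 6.41 with trametinib and 0.466 with DMSO in YAPKO2, and rose in all 3 lines, by 2.85 (SE 0.26) in YAPKO2, 1.96 (SE 0.26) in YAPKO1 and 0.94 (SE 0.26, limma adjusted p = 0.0398) in sgCON. STC1, the glycoprotein hormone stanniocalcin, also rose in all 3. NTS, the precursor of neurotensin, fell by 1.59 on the log2 scale (SE 0.23, limma adjusted p = 0.000262) in sgCON with trametinib. In the knockout lines with DMSO it was below sgCON, with a change of -2.41 (SE 0.23, limma adjusted p = 5.18e-07) in YAPKO2 and of -1.66 (SE 0.23, limma adjusted p = 7.97e-05) in YAPKO1, where STC1 rose by 1.51 and 0.84. In that comparison 2 of these 8 genes were higher and 1 lower for YAPKO2, and for YAPKO1 1 was higher and 1 lower, with list medians of 0.36 and 0.39.

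Of 15 other processing enzymes and their inhibitors 11 were tested. PAM, which amidates peptide ends and acts after CPE, was the gene of this list that fell with trametinib in all 3 lines. It averaged 29.4 with trametinib and 61.9 with DMSO in YAPKO2, 38.0 and 87.5 in YAPKO1, and 60.6 and 144 in sgCON, and parental cells had 254. Its changes were -1.06, -1.19 and -1.25 (SE 0.09 each, limma adjusted p of 2.17e-07, 1.27e-07 and 7.36e-08). Without the drug PAM fell relative to sgCON, with a change of -1.22 in YAPKO2 and of -0.72 in YAPKO1 (SE 0.09 each, limma adjusted p of 1.56e-08 and 1.79e-05). PCSK1N, which encodes the PCSK1 inhibitor proSAAS, went the other way there and rose by 1.85 (SE 0.29, limma adjusted p = 0.000162) in YAPKO2 and by 1.35 (SE 0.29, limma adjusted p = 0.00503) in YAPKO1. The convertase PCSK6 rose by 0.77 in YAPKO2 and 0.87 in YAPKO1 (SE 0.16 each). In the list as a whole 3 genes were higher and 2 lower in YAPKO2 with DMSO, while YAPKO1 had 2 higher and 1 lower, with medians of 0.15 and 0.01. The medians over all tested genes in those comparisons were 0.01 and 0. Of all tested genes 14.1% were higher and 13.1% lower for YAPKO2, and 6.18% and 5.81% for YAPKO1.

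Of 34 genes of granule biogenesis and release 26 were tested. SYT4, a synaptotagmin of dense-core granules, averaged 0.359 with trametinib and 0.558 with DMSO in YAPKO2, 0.554 and 9.92 in YAPKO1, and 0.743 and 14.99 in sgCON. In YAPKO2 it was thus near the added 0.5 in both treatments, and its response differed from that of sgCON by 3.35 (SE 0.40, limma adjusted p = 0.000101). PTPRN, the granule membrane protein IA-2, rose by 0.96 (SE 0.28, limma adjusted p = 0.0224) with trametinib in YAPKO2 and fell by 1.64 (SE 0.28, limma adjusted p = 0.00167) in sgCON, and the difference of the responses was 2.60 (SE 0.40, limma adjusted p = 0.000783). ICA1, a protein involved in granule formation, rose in all 3 lines, by 0.93 in YAPKO2, 1.33 in YAPKO1 and 1.02 in sgCON (SE 0.12 each). With trametinib YAPKO2 had 6 genes of the list higher and 2 lower, YAPKO1 had 4 higher and 1 lower, and sgCON had 1 higher and 2 lower, with medians of 0.24, 0.03 and -0.13. Among all tested genes 8.59% were higher and 11.5% lower in YAPKO2. The shares were 3.97% and 3.88% in YAPKO1, and 2.28% and 2.94% in sgCON. For the knockout lines over sgCON with DMSO, YAPKO2 had 5 higher and 5 lower and YAPKO1 had 0 higher by limma (1 at an unadjusted p under 0.05) and 6 lower, with medians of 0.03 and -0.21. In that comparison 14.1% of all tested genes were higher and 13.1% lower for YAPKO2, and 6.18% and 5.81% for YAPKO1. There SNAP25, a membrane fusion protein, fell, with a change of -1.40 in YAPKO2 and -0.92 in YAPKO1 (SE 0.20 each).

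Of 24 peptide receptors and clearance genes 23 were in the table and 6 were tested, and SSTR3 was not analysed here. None of the 4 NPY receptor genes listed, NPY1R, NPY2R, NPY4R and NPY5R, passed the filter, with group means of at most 0.121 FPKM. SSTR2, the somatostatin receptor used in imaging of neuroendocrine tumours, averaged 45.2 with trametinib and 7.53 with DMSO in YAPKO2, 14.4 and 3.20 in YAPKO1, and 2.33 and 1.04 in sgCON. It rose by 2.50, 2.01 and 0.87 (SE 0.16 each, limma adjusted p of 1.24e-08, 4.52e-07 and 0.00281). Parental cells had 5.24, above sgCON with DMSO, so that SSTR2 in sgCON was lower than in parental cells, with a change of -1.90 (SE 0.16, limma adjusted p = 4.45e-07). ADCYAP1R1, the receptor of the peptide PACAP, averaged 11.2 in YAPKO2 and 10.3 in YAPKO1, against 0.430 in sgCON, all with DMSO. OPRD1, the delta opioid receptor, averaged 5.31 in YAPKO2 and 3.10 in YAPKO1, against 0.0591 in sgCON with DMSO. In these DMSO comparisons YAPKO2 had 4 of the 6 genes higher and 1 lower and YAPKO1 had 3 higher and 1 lower, with medians of 1.44 and 0.78. Among all tested genes 14.1% were higher and 13.1% lower for YAPKO2, and 6.18% and 5.81% for YAPKO1, with medians of 0.01 and 0. With trametinib 5 were higher in YAPKO2 and 2 each in YAPKO1 and sgCON, and 0 were lower by limma (1 in sgCON at an unadjusted p under 0.05, and 0 in the knockout lines), with medians of 0.89, 0.45 and 0.45. Among all tested genes 8.59% were higher and 11.5% lower in YAPKO2. The shares were 3.97% and 3.88% in YAPKO1, and 2.28% and 2.94% in sgCON, and the medians were -0.01, -0.01 and 0.

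Of 20 regulators of neuroendocrine genes 17 were tested. REST, the repressor of neuronal and granin genes, was not called in any of the 13 comparisons and averaged 6.66 with trametinib and 7.06 with DMSO in YAPKO2, against 7.92 and 8.25 in sgCON. NEUROD1, a proneural factor, averaged 29.9 with trametinib and 12.4 with DMSO in YAPKO2, 15.6 and 7.79 in YAPKO1, and 1.44 and 0.333 in sgCON. JUN, a subunit of AP-1, rose with trametinib in all 3 lines and fell in the knockout lines against sgCON in DMSO, with changes of -1.44 in YAPKO2 and -1.03 in YAPKO1 (SE 0.15 each). In that comparison YAPKO2 had 5 of the 17 genes higher and 2 lower and YAPKO1 had 3 higher and 3 lower, with medians of 0.20 and -0.08. Of all tested genes 14.1% were higher and 13.1% lower there for YAPKO2, and 6.18% and 5.81% for YAPKO1. With trametinib YAPKO2 had 6 higher and 2 lower, YAPKO1 had 4 higher and 1 lower, and sgCON had 4 higher and 0 lower by limma (2 at an unadjusted p under 0.05), with medians of 0.17, 0.10 and 0.02. Among all tested genes 8.59% were higher and 11.5% lower in YAPKO2. The shares were 3.97% and 3.88% in YAPKO1, and 2.28% and 2.94% in sgCON.

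For genes whose group means spanned at least 2 on the log2 scale, the tested genes of closest pattern over the 7 group means were listed as a description. For CHGA they were MARCH2 (Pearson r = 0.998), CELF3 (0.995) and LINC00205 (0.992), and for SCG3 they were CHRNB2 (0.996), CELF3 (0.996) and KLHDC9 (0.994). CELF3, an RNA-binding protein gene, stood beside both. For CHGB they included ATP7B (0.991) and RASA4 (0.990). For SCG2 they included SYT4 (0.979), for NPY they were IPMK (0.991), COMMD2 (0.989) and ZNF706 (0.988), and for VGF they were HMBOX1 (0.976), TNFRSF12A (0.974) and B4GALT4 (0.972). Group means share their libraries, and with 7 points among 16092 genes such values carry no test. The correlation also ignores the size of the changes. MARCH2 means ran from 3.60 to 4.49 on the log2 scale, while CHGA spanned 5.31, and COMMD2 from 4.15 to 4.76, while NPY spanned 5.93. Others moved more, with CELF3 at -0.52 to 2.92 and SYT4 at -0.23 to 3.95.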

How the data were processed

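Total RNA of NLF cells was sequenced after removal of ribosomal RNA with a stranded kit, per the labels' protocols. The deposited values are FPKM, in a calibrated and an uncalibrated table of 57820 genes and 21 libraries. Per the submitters' processing notes the tools were STAR 2.4.2 for alignment and RSEM 1.3.0 for quantification, with build hg19. The calibrated table equals the other times 1 factor per library (0.927 to 1.07). The parental samples were matched to the columns that name no line.

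Scale factors for the calibrated FPKM were the median, per library, of the ratios to each gene's geometric mean (0.930 to 1.11). The filter of 1 FPKM in 3 libraries left 16092 genes, 12164 of them protein-coding. A model with 7 group means was fitted to log2(FPKM + 0.5) of all 21 libraries in limma (version 3.58.1, R 4.3.3), with a mean-variance trend in eBayes. Tests were two-sided, with Benjamini-Hochberg adjustment over all tested genes in each of 13 comparisons. The code was tested on simulated data. The genes, lists and comparisons were chosen with earlier results of these data known. From each list the text names called genes among the 4 of largest change in a comparison, while REST and the NPY receptors were named after their values were seen. YAP1, ETV4 and DUSP6 served as checks. Some genes of the lists are not reported here, and the sums and counts leave them out. Genes of closest pattern were the 3 with the highest Pearson correlation. Gene coordinates are from GENCODE release 29 (GRCh38), since the tables hold none. Alternatives were pseudocounts of 0.1 and 1, 2 other filters, 3 other scalings, no trend, a replicate block, a GC correction (spline with 5 degrees of freedom over 15522 genes), both together, only the groups compared, and leaving out each library. Leaving out YAPKO1 DMSO replicate 3 and YAPKO2 trametinib replicate 2 together was added after seeing the data.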

Additional observations from a re-analysis of the deposited data

Results flagged for a closer look

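Differences of the trametinib response between lines passed the limma test for 4 genes. Between YAPKO2 and sgCON they were 2.89 for CHGA (SE 0.35, adjusted p = 0.000111), 2.33 for SCG2 (SE 0.25, adjusted p = 4.71e-05), 2.33 for VGF (SE 0.30, adjusted p = 0.000166) and 1.70 for NPY (SE 0.29, adjusted p = 0.00169). Between YAPKO2 and YAPKO1 they were 2.20 for CHGA (SE 0.35, adjusted p = 0.00728) and 1.48 for SCG2 (SE 0.25, adjusted p = 0.00802). With the pseudocount of 0.5, VGF and NPY were too low in YAPKO2 with DMSO to fall as far as in sgCON. The sign of their differences from sgCON was thus fixed, and their p is no evidence of a differing response. The difference between YAPKO2 and sgCON was 1.58 (SE 0.38) for CHGB and 1.70 (SE 0.36) for SCG3, but both genes passed the filter only through YAPKO2 with trametinib, so their direction was fixed and their p is no evidence of a change. The CHGB value also rests on sgCON DMSO libraries that are all listed at 0. Under the alternatives it lay between 0.84 and 1.72, and the SCG3 difference between 1.39 and 2.01, both given as a description. Neither passed the threshold under every alternative. The summed sympathetic markers reached their highest values in YAPKO2 with trametinib (254 to 362 FPKM), overlapping YAPKO1 with trametinib (233 to 272), and their part in these differences was not tested.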

How the results depend on the processing

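Of the 44 called changes of single genes 8 are those of CHGB and SCG3 that the filter fixed. For the other 36, 685 of 718 values under the alternatives were still called and 0 changed sign. The counts of called genes given here include CHGB and SCG3, unlike those above for comparisons with YAPKO2 with trametinib. The number of genes called was 2 with a pseudocount of 0.1 for the response of YAPKO2 minus that of sgCON (6 as reported). For YAPKO2 minus YAPKO1 (2 as reported) it was 1 with that pseudocount, 5 with a pseudocount of 1, 4 with quantile normalization, 5 without the trend, 5 with the GC correction with or without the replicate block, and 0 when only the groups compared were fitted. Under that last setting it was also 2 for trametinib in YAPKO1 (4 as reported) and 3 for YAPKO2 against YAPKO1 with trametinib (5 as reported). With a mean FPKM of at least 1, which tests fewer of the genes, it was 3 for YAPKO2 against sgCON with trametinib (5 as reported), 2 for trametinib in YAPKO2 (4 as reported) and 3 for YAPKO2 against YAPKO1 with trametinib. With the GC correction it was 5 for YAPKO1 against sgCON with trametinib (2 as reported) and 2 for the response of YAPKO1 minus that of sgCON (0 as reported), and 4 and 1 when the replicate block was added. For sgCON against parental cells it was 2 with either pseudocount, the mean filter, the GC correction with or without the block, only the groups compared, or both GC-rich libraries left out, and 0 to 1 without 1 library (1 as reported).

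Values that changed sign were small and not called on either side. CHGB in the response of YAPKO1 minus sgCON (0.02) was -0.28 with a pseudocount of 0.1 and -0.21 to 0.27 without 1 library, and in YAPKO1 against sgCON with trametinib (0.13) it was -0.09 to 0.38. CHGA in sgCON against parental cells (0.01) was -0.09 with quantile normalization, -0.10 with the GC correction with or without the block, and -0.06 to 0.13 without 1 library. VGF in YAPKO2 against sgCON with trametinib (0.17) was -0.11 with the GC correction with or without the block and -0.01 to 0.36 without 1 library, and for trametinib in YAPKO2 (-0.05) -0.14 to 0.06. CPE in YAPKO2 against sgCON with trametinib (0.03) was -0.01 with the calibrated table unscaled, -0.02 with the GC correction with or without the block, and -0.11 to 0.17 without 1 library. In YAPKO1 against sgCON with DMSO (0.03) it was -0.01 with the GC correction with or without the block and -0.07 to 0.21 without 1 library. With trametinib in YAPKO1 (-0.01) CPE was 0.01 with the calibrated table unscaled, 0.04 unscaled, 0.05 with quantile normalization and -0.19 to 0.09 without 1 library. In YAPKO2 (-0.03) it was 0.04 unscaled, 0.05 with quantile normalization, 0.10 with both GC-rich libraries left out and -0.18 to 0.12 without 1 library. For the response of YAPKO2 minus YAPKO1 (-0.03) CPE was 0.01 with the GC correction with or without the block, 0.29 with both GC-rich libraries left out and -0.17 to 0.16 without 1 library.

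Correlations between replicates of equal number ran from -0.326 to 0.361 over 10 comparisons, and in none did every pair exceed 0.1. The main model therefore pairs no libraries, but these values cannot exclude that libraries of equal number belong together. With the replicate block the call of CHGA with trametinib in sgCON was lost (adjusted p = 0.0736), and the other counts of called genes were as reported. Over all tested genes, fitting only the groups compared gave 2392 called with trametinib in sgCON (840 as reported), 197 in YAPKO1 (1263) and 693 in YAPKO2 (3231). In DMSO it gave 739 for YAPKO1 against sgCON (1929), 302 for YAPKO2 against YAPKO1 (1121) and 4684 for sgCON against parental cells (2552), and with trametinib 2576 for YAPKO2 against sgCON (5842) and 286 for YAPKO2 against YAPKO1 (2280). For the response differences it gave 9 for YAPKO1 minus sgCON (40), 443 for YAPKO2 minus sgCON (777) and 3 for YAPKO2 minus YAPKO1 (130). The GC correction gave 1641 with trametinib in sgCON, 2346 in YAPKO1, 3039 for YAPKO1 against sgCON in DMSO, 1865 and 3449 for YAPKO2 against YAPKO1 with DMSO and with trametinib, 3987 for sgCON against parental cells, and 145, 1678 and 378 for the response differences in the order above. With the block added these were 1478, 2135, 2793, 1703, 3228, 3839, 112, 1522 and 306. With both GC-rich libraries left out the counts were 1333 with trametinib in sgCON, 2839 in YAPKO1, 3941 for YAPKO1 against sgCON with trametinib (2412), 2559 for YAPKO2 against YAPKO1 in DMSO, and 86, 1177 and 325 for the response differences. For YAPKO1 minus sgCON 24 were called with a pseudocount of 0.1, 23 with the calibrated table unscaled and 19 with the replicate block, and for YAPKO2 minus YAPKO1 63 with the calibrated table unscaled and 76 with the block. Without 1 library the counts were 483 to 546 with trametinib in sgCON, 744 to 1614 in YAPKO1, 1231 to 2132 and 1421 to 2147 for YAPKO1 against sgCON with DMSO and with trametinib, 2575 to 3848 for YAPKO2 against sgCON in DMSO (4365), 1564 to 3967 for YAPKO2 against YAPKO1 with trametinib, 1696 to 1862 for sgCON against parental cells, and 12 to 39, 509 to 1160 and 51 to 173 for the response differences. The cause of these moves was not tested. The depth in reads is not known for the FPKM, and levels under the pseudocount give compressed changes.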
